A study of Mus musculus with 12 samples.

Results

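The nonsense-mediated decay machinery was examined in mouse hearts expressing expanded CUG repeat RNA, as the 9 genes Upf1, Upf2, Upf3a, Upf3b, Smg1, Smg5, Smg6, Smg8 and Smg9. The genes were chosen by name, as members of the pathway, with earlier results of these data known. All 9 were found among the 51826 entries of the gene count table. RNA-seq libraries of polyadenylated RNA came from the atria and the ventricles of 3 CUG960 +dox mice (V119, V120 and V123) and 3 MHCrtTA +dox controls (V327, V333 and V334), so that each mouse gave 1 atrial and 1 ventricular library. CUG960 mice carried the TREDT960I transgene, an interrupted CUG repeat within a human DMPK segment, at both alleles and the MHCrtTA transgene at one. The controls carried MHCrtTA alone. MHCrtTA expresses the doxycycline-dependent activator from an α myosin heavy chain promoter, which confines induction to cardiomyocytes, while the libraries hold RNA of every cell of the tissue. All mice were 10-week-old FvB females fed doxycycline from postnatal day 1, so the controls share the drug and the activator with the CUG960 mice.

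Nonsense-mediated decay is a surveillance pathway that degrades mRNAs on which translation ends too early, often because a splicing change has brought in a premature stop codon, and it also sets the level of a number of normal transcripts. The RNA helicase UPF1 is recruited to the terminating ribosome, and UPF2 links it to UPF3A or UPF3B, which bind the exon junction complexes left on the mRNA by splicing. The kinase SMG1, held in check by SMG8 and SMG9, phosphorylates UPF1, and phosphorylated UPF1 attracts the endonuclease SMG6 and the adaptor SMG5, through which the mRNA is cut or deadenylated and decapped. Myotonic dystrophy type 1, which these mice model, is marked by widespread missplicing in the heart. Because missplicing can create premature stop codons, the level of the machinery in these hearts was compared between genotypes and chambers.

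Of the 9 genes, Upf3b differed between CUG960 +dox mice and controls in the atria, where it was 1.28-fold higher. None passed the test in the ventricles, where the Upf3b estimate was 1.19-fold. Over all genes tested, 14.6% passed in atria and 9.94% in ventricles. The other 8 genes had fold changes between 0.908 for Smg1 and 1.13 for Smg6 in the atria. Chamber differences were also small, with Smg6 lower in ventricles than in atria in both genotypes and Upf1 lower in control ventricles. These chamber calls were lost when some of the mice were left out, and the Upf1 difference was not shown to be particular to controls. Of all genes tested, 55.7% passed between the chambers of controls and 54.2% between those of CUG960 +dox mice.

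Upf3b lies on chromosome X and its close relative Upf3a on chromosome 8. Both encode the protein that joins UPF2 to the exon junction complex, and the CUG960 difference was seen for Upf3b, so the 250 bases before the start of each gene are shown to let the paralogs be compared (RefSeq, GRCm38.p6, written on the strand of the gene). Capitals mark the letters GGGCGG or their reverse complement, known as a GC box, and AAGATGGC, the core of the motif named for YY1. The first is chrX:37110323-37110572 on the minus strand and the second is chr8:13785365-13785614 on the plus strand.
Upf3b: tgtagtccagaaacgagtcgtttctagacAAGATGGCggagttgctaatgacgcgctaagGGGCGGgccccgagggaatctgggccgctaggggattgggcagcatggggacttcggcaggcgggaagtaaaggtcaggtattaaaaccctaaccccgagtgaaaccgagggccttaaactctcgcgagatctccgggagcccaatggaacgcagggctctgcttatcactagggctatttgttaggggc
Upf3a: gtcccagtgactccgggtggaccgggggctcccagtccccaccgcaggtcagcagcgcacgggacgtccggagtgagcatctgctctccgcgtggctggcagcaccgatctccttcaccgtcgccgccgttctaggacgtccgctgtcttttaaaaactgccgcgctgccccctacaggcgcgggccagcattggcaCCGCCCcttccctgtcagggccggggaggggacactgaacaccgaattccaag
Upf3b held 1 GC box, starting 190 bases before the gene start, and 1 AAGATGGC, starting 221 bases before it. Upf3a held 1 GC box, 53 bases before the start on the opposite strand, and no AAGATGGC. GC boxes on either strand occurred before 7 of the 9 genes, all except Smg5 and Smg8, and in 32.7% of the 32851 RefSeq promoter windows of this length. AAGATGGC occurred before 1 of the 9 and in 1.56% of all windows. The ETS motif CCGGAAG was found before Smg8 alone among the 9 (6.91% of all windows), and GCATGCGC, the core of the motif named for NRF1, before Upf1 alone (2.26%). These matches are letters in a window and were not tested for binding.

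The libraries held between 116127966 and 160676189 counts, of which the 9 genes together took 31551 to 61873. The lowest count of any of the 9 genes in any library was 1057 (Smg9), so that none was near the limit of detection. Levels are given in CPM, the count of a gene over the size of its library, with sizes set by TMM, a method that makes the bulk of the genes level between libraries. Mitochondrially encoded transcripts took 10.9% to 12.2% of the counts in atria and 15.3% to 20.5% in ventricles. Their share was lower in the ventricles of CUG960 +dox mice (15.3%, 17.3% and 18.4%) than in those of controls (19.6%, 20.5% and 20.5%). Some libraries stood apart in other genes. In V334 atria the erythroid markers summed to 2764 CPM, against 322 and 515 in the other control atria, and Atf3, a stress-response mRNA known to be sensitive to decay, reached 352 CPM, against 3.77 to 77.0 in the other atria. The ventricles of V123 held the atrial transcript Myl7 at 55.8 CPM, against 0.192 and 0.305 in the other CUG960 ventricles and 4.95 to 19.3 in controls. In V333 atria the adipocyte transcript Cfd reached 8.99 CPM, against 1.09 to 3.75 in the other atria. V327 atria held the ventricular transcript Myl2 at 33.5 CPM, against 8.80 to 11.7 in the other atria.

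To compare the genes with each other, CPM was divided by the length of the longest coding transcript of the gene in GENCODE M21 (GRCm38). The authors counted on an Ensembl annotation of the same build, so lengths and counts come from different annotations, for these levels and for every other use of length. Per kilobase, Smg5 had the highest level in control atria, at 23.3 ± 0.737 CPM per kb (SD, n = 3). Upf1 followed at 10.9 ± 0.680, Upf2 at 7.12 ± 0.216, Smg6 at 6.48 ± 0.326 and Upf3a at 5.79 ± 0.271 CPM per kb. Smg9, Upf3b, Smg1 and Smg8 were the lowest, at 4.72 ± 0.187, 4.55 ± 0.166, 4.27 ± 0.329 and 4.17 ± 0.0313 CPM per kb, and neighbours in that order differed by less than the sum of their SDs. In control atria Upf3a thus stood above Upf3b, whereas in CUG960 atria Upf3b (5.86 ± 0.210 CPM per kb) and Upf3a (5.75 ± 0.428) were level within their spread. Smg5, Upf1 and Upf2 kept the first ranks in all 4 groups. RSEM shares out fragments that match more than 1 gene, so any fragment common to the paralogs Upf3a and Upf3b would be split between them, and this was not tested.

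**Figure D1:**
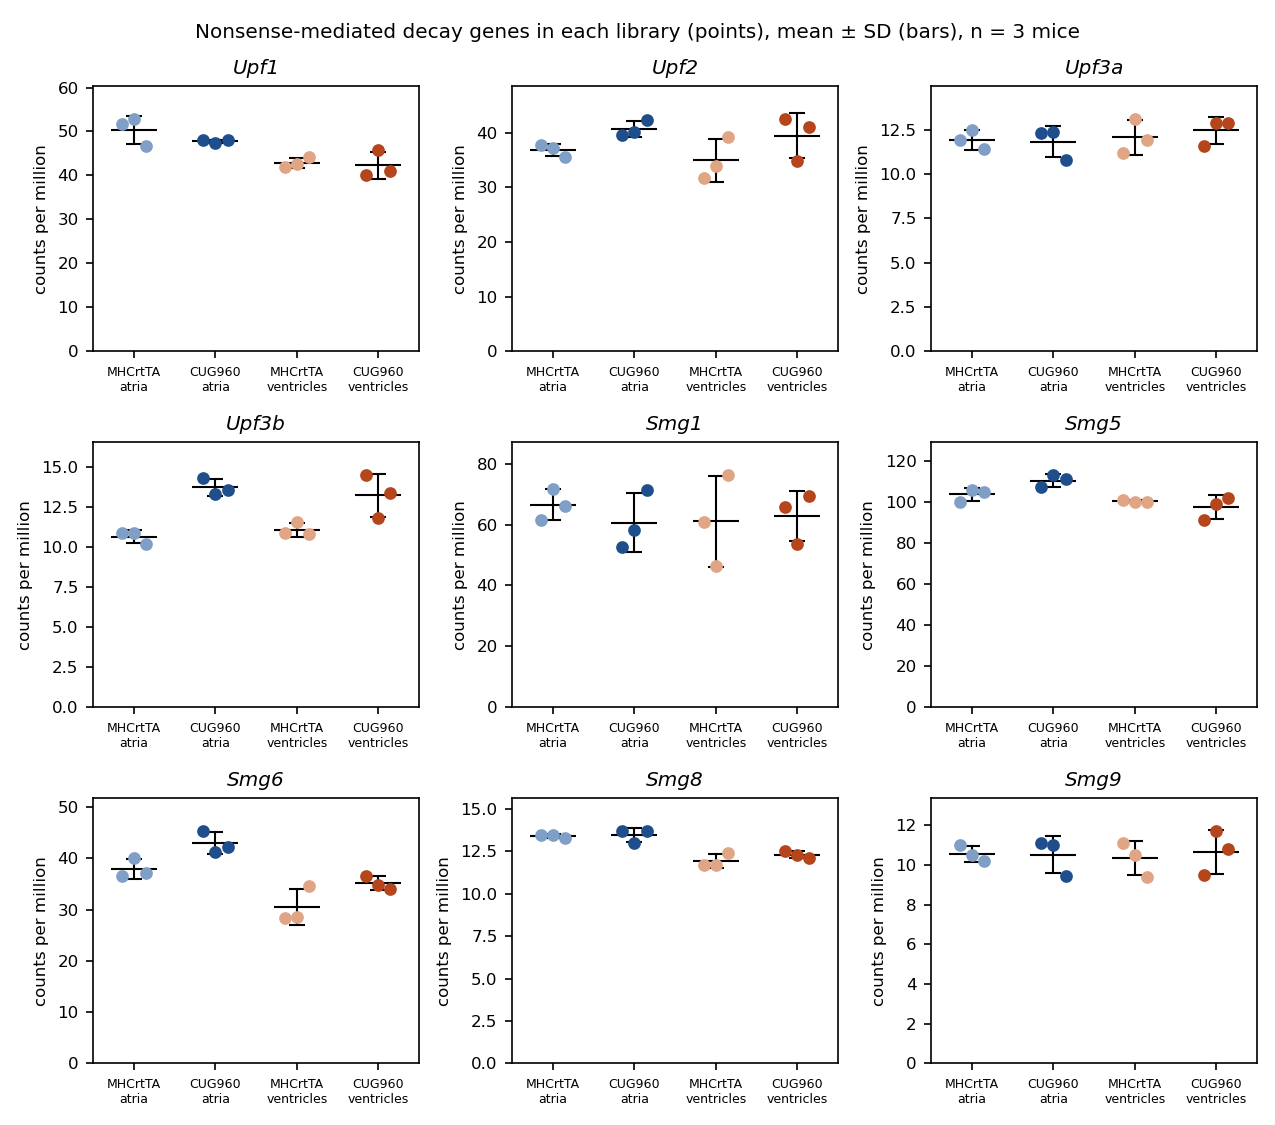
CPM of the 9 nonsense-mediated decay genes in each library, with atria in blue and ventricles in orange, CUG960 in the darker shade, and bars for the mean ± SD of 3 mice. Upf3b is higher in every CUG960 library than in every control library of the same chamber, and the ventricular Smg1 values of the controls spread from 46.3 to 76.2 CPM.

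Among the UPF genes, Upf3b was the one whose CUG960 and control mice differed past the threshold. In the atria it measured 10.9, 10.9 and 10.2 CPM in the controls V327, V333 and V334, and 14.3, 13.3 and 13.6 CPM in the CUG960 mice V119, V120 and V123. Every CUG960 mouse was above every control. The log2 fold change was 0.36 ± 0.07 (SE; adjusted P value 0.014; edgeR quasi-likelihood test with Benjamini-Hochberg adjustment over 17650 genes), with a 95% confidence interval of 1.15- to 1.44-fold. Leaving out V119, V333 or V334 took the adjusted P value to 0.054, 0.051 or 0.061, while the log2 fold change stayed between 0.33 and 0.38 whichever mouse was left out. In the ventricles Upf3b measured 10.9, 11.6 and 10.8 CPM in controls and 14.5, 11.8 and 13.4 CPM in CUG960 +dox mice. The groups again did not overlap, but V120 lay close to the highest control. The ventricular log2 fold change of 0.25 ± 0.10 (95% interval 1.01- to 1.39-fold) did not pass the test (adjusted P value 0.16). Its difference from the atrial value was -0.11 ± 0.12 (SE; adjusted P value 0.78 for the interaction of chamber and genotype), so a difference between chambers was not detected, and its 95% interval ran from 0.775- to 1.10-fold.

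Upf3a, whose product has a weaker activity in decay than UPF3B, did not pass the test in either chamber. It measured 11.9, 12.5 and 11.4 CPM in control atria and 12.3, 12.4 and 10.8 CPM in CUG960 atria, and the ranges overlapped. The fold change was 0.990 in the atria (95% interval 0.867 to 1.13) and 1.03 in the ventricles (0.883 to 1.20), where Upf3b was at 1.28 and 1.19. The atrial interval of Upf3a stays under the atrial estimate of Upf3b, while the ventricular one takes in that of Upf3b, and the difference between the paralogs was not tested.

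Upf2, the bridge between UPF1 and the UPF3 proteins, measured 37.7, 37.2 and 35.6 CPM in control atria and 39.6, 40.1 and 42.4 CPM in CUG960 atria. The groups did not overlap, but the difference was 1.10-fold and did not pass the test (adjusted P value 0.14). In ventricles the ranges overlapped, with 31.7, 33.9 and 39.2 CPM in controls and 42.5, 34.8 and 41.1 CPM in CUG960 +dox mice (1.13-fold, adjusted P value 0.35).

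Upf1, the helicase on which the pathway turns, measured 51.6, 52.8 and 46.8 CPM in control atria and 48.0, 47.3 and 48.0 CPM in CUG960 atria. Ventricular values were 41.9, 42.5 and 44.2 CPM in controls and 40.2, 45.7 and 40.9 CPM in CUG960 +dox mice. The genotypes overlapped in both chambers, and the 95% intervals of the fold change, 0.856 to 1.04 in atria and 0.872 to 1.11 in ventricles, do not reach a rise of 1.5-fold or a fall of that size.

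Among the SMG genes, none passed the test between genotypes. Smg6, the endonuclease, measured 36.5, 40.1 and 37.1 CPM in control atria and 45.3, 41.3 and 42.3 CPM in CUG960 atria. The CUG960 mice were all above the controls, by 1.13-fold on average (95% interval 1.02 to 1.25; adjusted P value 0.11). In ventricles Smg6 measured 28.4, 28.5 and 34.6 CPM in controls and 36.6, 34.8 and 34.1 CPM in CUG960 +dox mice, with the control V334 among the CUG960 values (1.15-fold, adjusted P value 0.21).

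Smg5, the adaptor that leads to deadenylation and decapping, measured 99.9, 106 and 105 CPM in control atria and 107, 113 and 111 CPM in CUG960 atria. These groups did not overlap by a narrow margin, and the fold change was 1.06 (95% interval 0.968 to 1.16; adjusted P value 0.37). In ventricles Smg5 spanned 100 to 101 CPM in controls and 91.0 to 102 CPM in CUG960 +dox mice. Smg8 and Smg9, the partners of the SMG1 kinase, had fold changes of 0.996 and 0.990 in atria and of 1.03 for both in ventricles, and their genotypes overlapped in both chambers. Over the 12 libraries Smg8 ran from 11.7 to 13.7 CPM and Smg9 from 9.41 to 11.7 CPM.

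Smg1, the kinase itself, varied most among mice of 1 group. It measured 61.5, 71.7 and 66.2 CPM in control atria, 52.5, 58.2 and 71.2 in CUG960 atria, 60.8, 46.3 and 76.2 in control ventricles, and 65.7, 53.7 and 69.3 in CUG960 ventricles. The SD was 24.4% of the mean in control ventricles, against 0.634% for Smg5 in the same libraries. Its fold change was 0.908 in atria (95% interval 0.759 to 1.09) and 1.03 in ventricles (0.794 to 1.33). Changes inside the interval of each chamber were not excluded.

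Counted together, 1 of the 9 genes rose and 0 fell in CUG960 atria, where 14.6% of the 17650 genes tested passed an adjusted P value of 0.05 (7.95% rose and 6.62% fell). With a fold change of at least 1.5 also required, 0 of 9 remained, against 5.49% of all genes. In the ventricles 0 of 9 passed by edgeR, 1 had an unadjusted P value below 0.05 and 0 passed by DESeq2, where 9.94% of 16909 genes passed (5.73% rose, 4.20% fell, and 4.75% passed with the fold threshold). Upf2, Upf3b, Smg5 and Smg6 were the genes with every CUG960 atrium above every control, an arrangement found for 19.0% of all genes tested. In the ventricles it was Upf3b alone, where 16.7% of genes had it. The median absolute log2 fold change of the 9 genes was 0.08 in atria and 0.04 in ventricles, and that of all genes tested was 0.19 in both. Among genes with a mean of 10 to 120 CPM, closer to the levels of the 9, it was 0.14 and 0.13. For the interaction of chamber and genotype 0 of 9 passed by edgeR, 0 had an unadjusted P value below 0.05 and 0 passed by DESeq2, where 1.38% of 18327 genes passed by edgeR.

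**Figure D2:**
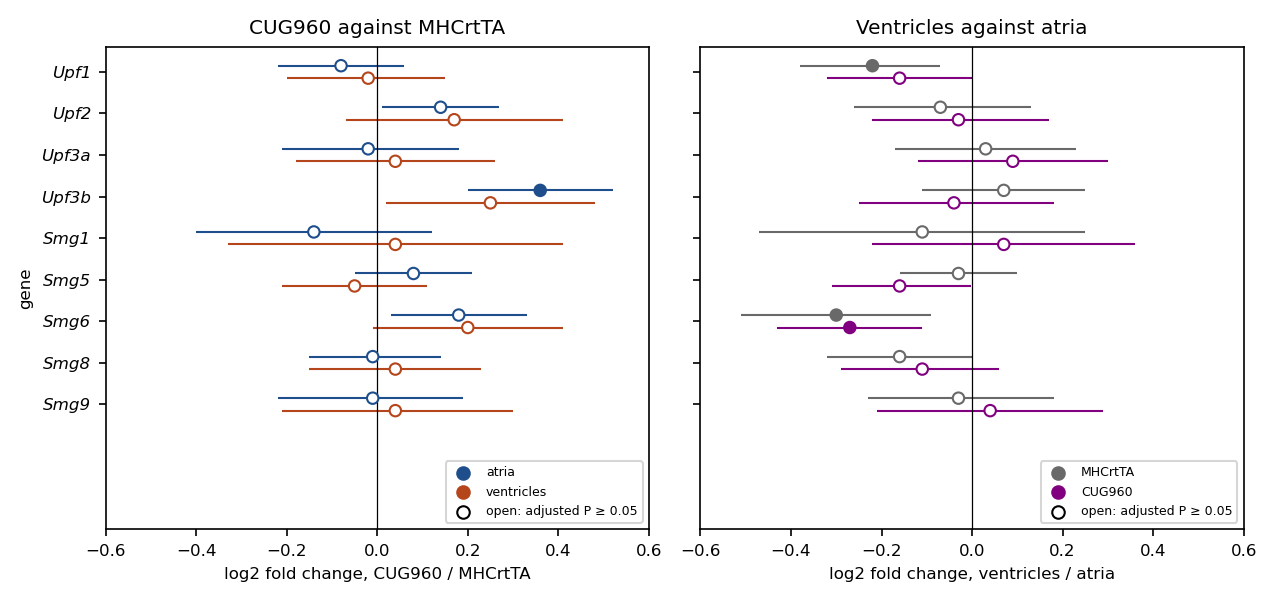
Log2 fold changes with 95% confidence intervals for the 9 genes, CUG960 against MHCrtTA by chamber (left) and ventricles against atria by genotype (right), with filled points for an adjusted P value below 0.05. Upf3b in atria is the filled point on the left, and on the right the filled points are Upf1 in controls and Smg6 in both genotypes, all below 0.

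Between the chambers of control mice, Smg6 and Upf1 were lower in ventricles and no other member passed the test, although Smg8 (0.894-fold; adjusted P value 0.085) did so with upper quartile scaling (0.046) and in the single fit of 12 libraries (0.041). The Smg6 log2 fold change was -0.30 ± 0.09 (SE; 0.811-fold; adjusted P value 0.021), with every ventricle below every atrium. For Upf1 it was -0.22 ± 0.07 (0.857-fold; adjusted P value 0.021), again without overlap. How many of all genes were separated in this way between chambers was not counted, in either genotype. The Upf1 call was also lost, at a log2 fold change of -0.14 (adjusted P value 0.065), when the trend with transcript length was removed from each library, while Smg6 kept its call (-0.20; 0.029). Both calls were lost without V327 (adjusted P values 0.11 for Smg6 and 0.16 for Upf1) or without V333 (0.16 and 0.13). In CUG960 +dox mice Smg6 was again lower in ventricles, by a log2 fold change of -0.27 ± 0.07 (0.829-fold; adjusted P value 0.0094), and the call was lost without V119 (adjusted P value 0.054) or V123 (0.052). The Upf1 and Smg5 estimates in CUG960 +dox mice were both 0.896-fold, with every ventricle below every atrium, and did not pass (adjusted P values 0.089 and 0.079). Both passed with upper quartile scaling (0.043 for Upf1 and 0.039 for Smg5), when each library needed 10 counts of a gene (0.049 and 0.042) and in the single fit of 12 libraries (0.043 and 0.023), so the Upf1 difference is not shown to be particular to controls. The chambers differed widely in other genes, since 55.7% of genes passed in controls (28.3% lower in ventricles) and 54.2% in CUG960 +dox mice (26.7% lower). The 9 genes, with 2 and 1 called, had median absolute log2 differences of 0.07 and 0.09, against 0.44 and 0.42 over all genes and 0.31 and 0.28 over those with a mean of 10 to 120 CPM. These values depend on the scaling. Dividing by the library totals without TMM put all 9 genes lower in ventricles in both genotypes, but it also moved the median log2 difference of all genes from -0.03 to -0.49 in controls and from -0.01 to -0.40 in CUG960 +dox mice. Smg6, at -0.76 and -0.66 on that scaling, remained below that median. This was not particular to Smg6, since Smg8 (-0.62 and -0.50) and Upf2 (-0.52 and -0.42) were also below it in both genotypes. Upf3a (-0.43 and -0.30) and Smg9 (-0.48 and -0.35) were above it in both.

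For some of the 9 genes, variation among mice of a group moved with that of long transcripts. Among 12182 genes with a coding transcript length that averaged 1 CPM or more, the longest 10% had transcripts of at least 6.84 kb and the shortest 25% of at most 2.06 kb. In the control ventricles the median deviation of the longest 10% from the group mean was -0.17 in V333 and 0.16 in V334 on the log2 scale, and Smg1, whose longest coding transcript is 15.56 kb with 63 exons, deviated by -0.37 and 0.35 in the same libraries. In CUG960 atria V119 and V123 gave -0.09 and 0.12 for the longest 10% and -0.19 and 0.24 for Smg1. Across the 12 libraries, which enter both measures, the deviations of Smg1 and of the longest 10% had a Pearson r of 0.94, as a description. From the longer to the shorter transcripts, the value was 0.55 for Smg6 (5.85 kb), 0.71 for Upf2 (5.17 kb), -0.02 for Upf1 (4.62 kb), -0.11 for Smg5 (4.45 kb), 0.57 for Smg8 (3.22 kb), 0.07 for Upf3b (2.34 kb), -0.74 for Smg9 (2.24 kb) and -0.66 for Upf3a (2.06 kb). Between genotypes the longest 10% had a median log2 fold change of -0.10 and the shortest 25% of 0.06 in atria, where the Smg1 estimate was -0.14. In ventricles both medians were within 0.01 of 0, and the Smg1 estimate was 0.04. Between chambers the medians were farther apart, at -0.18 for the longest and 0.19 for the shortest in controls and at -0.08 and 0.16 in CUG960 +dox mice. When the trend with length was removed from each library, an alternative chosen after these values had been seen, Upf2 (log2 fold change 0.19; adjusted P value 0.028) and Smg6 (0.25; adjusted P value 0.048) passed the test in atria beside Upf3b, which makes 3 of 9, and 16.0% of all genes passed in that fit.

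**Figure D3:**
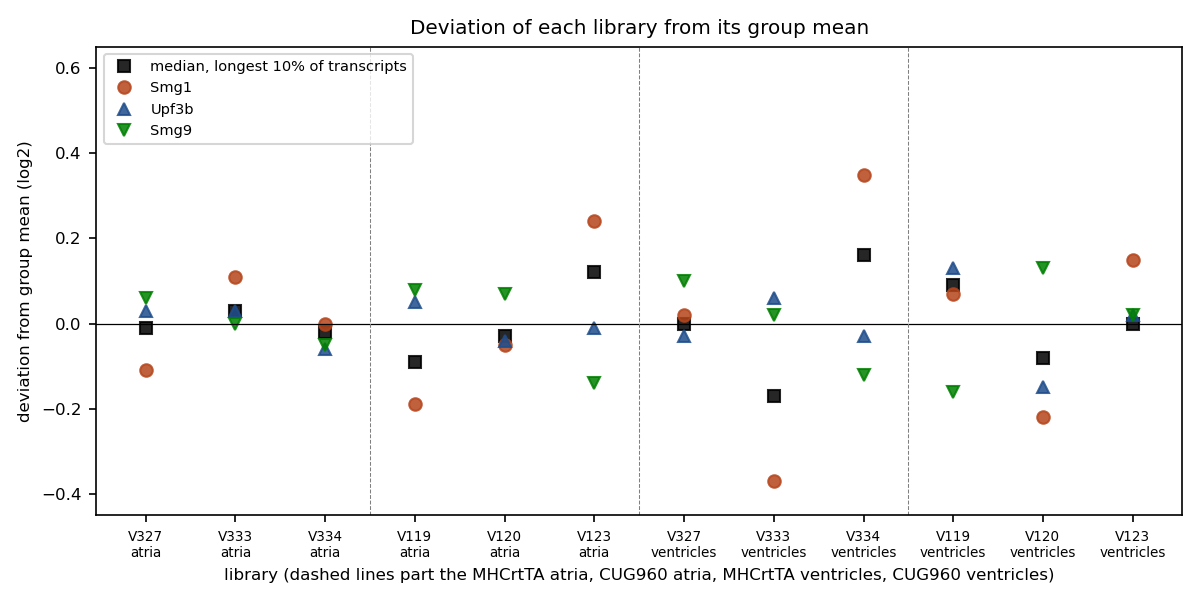
Deviation of each library from the mean of its group on the log2 scale, for the median of the longest 10% of transcripts (squares), Smg1, Upf3b and Smg9. Smg1 moves with the long transcripts, from -0.37 in the ventricles of V333 to 0.35 in those of V334.

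Smg1, Smg5 and Smg6 each have 1 annotated transcript of the class nonsense-mediated decay in GENCODE M21, whereas the other genes, Upf3b among them, have none. The counts are sums over all transcripts of a gene, so a shift between coding and decay-prone isoforms of these genes is not visible in them. On GRCm38 the genes lie on 6 chromosomes. Upf1 (70331525 to 70353278) and Upf3a (13785615 to 13799193) are on chromosome 8, Smg1 (118131308 to 118243670) and Smg9 (24399619 to 24422778) on chromosome 7, and Smg6 (74925823 to 75164448) and Smg8 (87077732 to 87086774) on chromosome 11. Upf2 is on chromosome 2 (5951469 to 6056703), Smg5 on chromosome 3 (88336260 to 88362338) and Upf3b on chromosome X (37091678 to 37110322). Smg6 spans 238.6 kb, the most of the 9, and Smg8 spans 9.0 kb, the least.

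The 5 genes outside the family whose log2 CPM over the 12 libraries was most like the mean standardized profile of the 9 were Kif3b and Zfp667 (Pearson r 0.94 for both), Mid1 (0.93), Brd8 (0.92) and Inppl1 (0.92), among the 13112 genes that averaged 1 CPM or more. Among the members themselves the r with this mean ranged from 0.08 for Upf3a and 0.10 for Smg9 to 0.82 for Smg8 and 0.92 for Smg6, so the mean profile was mainly that of Smg6, Smg8, Upf1 (0.67), Upf2 (0.64) and Smg5 (0.63). The r of Upf3b was 0.42 and that of Smg1 was 0.20.

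Of 47 other genes of the pathway and its partners in 5 lists, 0 rose and 2 fell in CUG960 atria, and 0 rose and 0 fell in ventricles (ventricular unadjusted P values below 0.05 numbered 2 for termination and cap-binding, 1 for deadenylation and the exosome, and 0 for each of the other lists, and DESeq2 called none). Over all genes tested the shares called were 14.6% in atria and 9.94% in ventricles. Among 6 other decay factors Nbas, which takes part in the decay of transcripts at the endoplasmic reticulum and in vesicle transport, fell in atria. It measured 20.9, 19.9 and 21.4 CPM in controls and 14.5, 14.7 and 16.4 CPM in CUG960 +dox mice. The groups did not overlap, and the log2 fold change was -0.45 ± 0.07 (adjusted P value 0.0062). Of 13 genes of deadenylation and the exosome Ttc37, a subunit of the complex that feeds mRNA to the exosome, fell in atria from 22.8, 23.9 and 22.7 CPM to 17.1, 17.4 and 20.3 CPM (log2 fold change -0.35 ± 0.08; adjusted P value 0.026), and leaving out any mouse except V123 took it past 0.05. None of the 11 genes of the exon junction complex, the 8 of termination and cap-binding or the 9 of decapping and 5′ decay passed by edgeR in atria, with 1 in each at an unadjusted P value below 0.05, and DESeq2 called 0, 0 and 1. In the lists of Nbas and Ttc37 DESeq2 called 1 and 2, so that it called 4 of the 47 in atria, against 2 by edgeR. Over all genes tested it called 3427 of 28042 in atria. The median log2 fold changes of the 5 lists ran from -0.06 to 0.04 for atria and from -0.08 to 0.06 for ventricles, beside -0.01 for all genes in both. Between chambers 13 of the 47 were higher and 11 lower in ventricles of controls, and 8 were higher and 10 lower in those of CUG960 +dox mice, where 55.7% and 54.2% of all genes were called.

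Transcripts that are known to accumulate when decay is impaired were taken as a list of 14, among them stress-response mRNAs and the hosts of small nucleolar RNAs. In CUG960 atria 3 rose, 0 fell and 11 did not pass, and the median log2 fold change was 0.15, whereas 7.95% of all genes rose. In ventricles 1 rose and the median was 0.07, and 5.73% of all genes rose. DESeq2 called 4 in atria and 2 in ventricles, where it called 3427 of 28042 and 2489 of 27213 genes tested. The lowest atrial estimates were those of Atf3 (log2 fold change -1.96 ± 1.12; adjusted P value 0.28) and Cdkn1a (-0.79 ± 0.34; adjusted P value 0.16), whose genotypes overlapped and which were highest in V334. Gadd45a, a stress-induced mRNA and a well-known target of the pathway, rose in both chambers. It measured 3.12, 2.86 and 2.95 CPM in control atria and 7.14, 5.70 and 7.03 CPM in CUG960 atria (2.22-fold; log2 fold change 1.15 ± 0.12; adjusted P value 0.00098), and 10.5, 13.5 and 10.9 CPM in control ventricles and 28.3, 22.5 and 22.7 CPM in CUG960 ventricles (2.10-fold; adjusted P value 0.0014). The groups were far apart in each chamber, and both calls held when any single mouse was left out. Ddit3, a transcription factor of the stress response, rose 1.28-fold in atria (adjusted P value 0.021), a call lost without V119, V120, V333 or V334 and in the single fit of 12 libraries (0.094). In ventricles its estimate was 1.33-fold with overlapping genotypes, and it did not pass by edgeR (adjusted P value 0.12) but did by DESeq2 (0.036), without the filter on low counts (0.033) and with library totals (0.042). Zfas1, a small nucleolar RNA host, rose 1.43-fold in atria (adjusted P value 0.047), with V123 at 7.97 CPM near the highest control at 7.53 CPM, and its call was lost when any of 5 of the 6 mice was left out. The other hosts, Gas5, Snhg1, Snhg5, Snhg8, Snhg12 and Snhg15, did not pass in either chamber. Gadd45a and Ddit3 are also induced by stress at the level of transcription, and these counts do not tell synthesis from decay.

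Necap2 in atria, and Coq8a and Pdlim7 in both chambers, were singled out by the study for premature stop codons on these same samples. The direction and size of the changes of these 3 genes here are therefore not independent evidence. Necap2, an adaptor of clathrin-mediated transport, measured 14.6, 14.5 and 15.1 CPM in control atria and 56.0, 58.7 and 50.4 CPM in CUG960 atria, and it rose 3.72-fold there (adjusted P value 1e-05) and 4.12-fold in ventricles (adjusted P value 1.4e-06). Coq8a, which acts in coenzyme Q synthesis, fell to 0.260-fold in atria (adjusted P value 2.2e-05) and 0.164-fold in ventricles (adjusted P value 1.9e-06). Pdlim7, a cytoskeletal adaptor, fell to 0.325-fold in atria (adjusted P value 3.8e-05) and 0.342-fold in ventricles (adjusted P value 8.7e-05). These changes were larger than any among the 9 genes of the machinery. The 3 genes were picked for changed expression in these samples and the 9 by name, so nothing is read from that contrast.

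**Figure D4:**
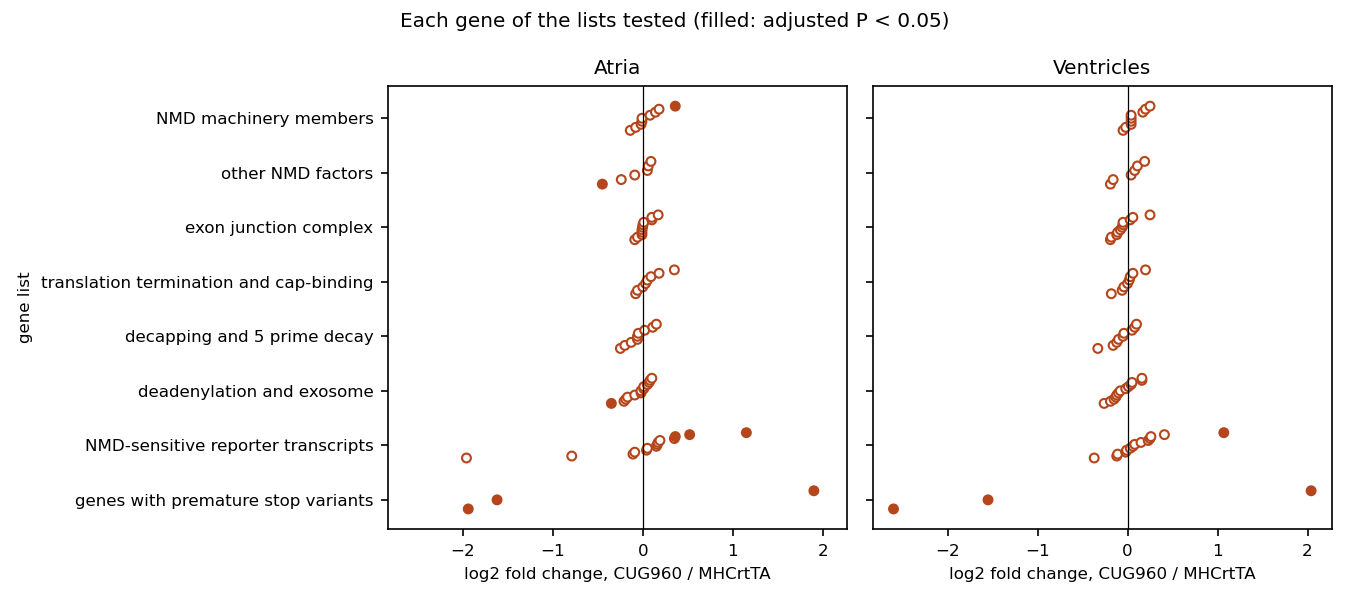
Log2 fold change, CUG960 against MHCrtTA, of each gene in the 8 lists for atria (left) and ventricles (right), with filled points for an adjusted P value below 0.05. The machinery and its partners lie close to 0, and the filled points farthest from 0 are Gadd45a (1.15 and 1.07), Necap2, Coq8a and Pdlim7. The open points at -1.96 and -0.79 in atria are Atf3 and Cdkn1a, which did not pass the test.

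The tissue labels held, with markers of atrial cardiomyocytes summing to 21796 to 28929 CPM in atria and 84.6 to 319 CPM in ventricles, and Nppa as the most abundant. Cell markers also moved with genotype. In atria 3 of 6 endothelial markers fell by edgeR (4 at an unadjusted P value below 0.05, and 3 called by DESeq2), and their summed level was 554 to 663 CPM in controls and 443 to 500 CPM in CUG960 +dox mice, with Pecam1 the most abundant. In ventricles 2 of 6 fell by edgeR (5 at an unadjusted P value below 0.05, and 4 called by DESeq2), and the sums were 710 to 851 and 571 to 614 CPM, with Kdr the most abundant. The general cardiomyocyte markers summed to 37895 to 39501 CPM in control atria and 40620 to 42783 in CUG960 atria, where 1 of 5 rose and 1 fell by edgeR, 3 had an unadjusted P value below 0.05, DESeq2 called 3 and the median log2 fold change was -0.10. The higher sum was that of Myh6, the most abundant, at 25256 to 25984 CPM in controls and 29572 to 30514 in CUG960 atria, while Ryr2 was at 757 to 816 and 454 to 672 CPM and Actc1 at 4599 to 5371 and 3917 to 4371 CPM. Fibroblast markers summed to 1927 to 2263 and 1663 to 1966 CPM in atria, where 1 of 6 fell by edgeR, 5 had an unadjusted P value below 0.05, DESeq2 called 3 and the median log2 fold change was -0.28. Of the leukocyte markers, 0 of 6 passed in either chamber by edgeR, where 0 and 1 had an unadjusted P value below 0.05 and DESeq2 called 0 and 1. Of the remaining markers tested in atria, 1 of 6 atrial and 1 of 4 ventricular cardiomyocyte markers and 2 of 3 skeletal muscle markers fell, and none of 5 adipocyte, 5 Schwann cell or 5 erythroid markers passed by edgeR, where 1, 0 and 5 had an unadjusted P value below 0.05 and DESeq2 called 1, 0 and 0. In ventricles 3 of 5 adipocyte markers (5 at an unadjusted P value below 0.05, and 4 called by DESeq2), 1 of 3 Schwann cell markers and 1 of 5 general cardiomyocyte markers fell, 1 rose and 1 fell among both the 6 atrial and the 5 ventricular cardiomyocyte markers, and none of 6 fibroblast, 5 erythroid or 3 skeletal muscle markers passed by edgeR, where 2, 2 and 2 had an unadjusted P value below 0.05 and DESeq2 called 1, 0 and 1. In the skeletal muscle list Ckm was the most abundant, and Myh1 and Myh4 had too few counts to be tested. Whether the RNA of that list came from skeletal muscle or from cardiomyocytes was not tested. In whole tissue, fewer cells of a type and less RNA per cell cannot be told apart, and the part of these marker shifts in the Upf3b difference was not tested. Without V334 the Upf3b log2 fold change in atria was 0.33 (adjusted P value 0.061), and without V123 it was 0.36 (adjusted P value 0.025). Leaving out V333 gave 0.37 (edgeR adjusted P value 0.051).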

How the data were processed

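The authors prepared stranded paired-end libraries from polyadenylated RNA, aligned them to mm10 (GRCm38) and estimated counts per gene with RSEM 1.3.1, which shares out fragments that match several genes. The deposited values are these expected counts, here all whole numbers, for 12 libraries with 116127966 to 160676189 counts each. Fragments are not distinct molecules, and the mouse is the replicate. The 92 table entries that repeat a symbol include none of the 9 genes. The strand setting of the counting is not given in the sources used here.

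The counts were analysed with edgeR 4.0.16 in R 4.3.3 (filterByExpr, TMM, glmQLFit, glmQLFTest, Benjamini-Hochberg adjustment over the genes tested), with the libraries of each comparison fitted alone and all 12 for the interaction. All 9 genes passed the filter. A gene was called at an adjusted P value below 0.05. DESeq2 1.42.0, other scalings and filters, leaving out each mouse, and the mouse as a block were tried as alternatives. A design of 3 against 3 mice can reach an exact permutation P value of 0.1 at the lowest, so no such test is given. The two-sided model tests were used instead. CPM for the text was scaled over all 12 libraries, and log2 CPM used an offset of 0.5. Replicates differed well beyond counting noise (chi-square per degree of freedom 38.3 to 113). Both chambers of a mouse share the animal, and their deviations from the group means correlated at 0.06 to 0.35 for the same mouse and at -0.40 to 0.32 for different mice. The members and lists were chosen with earlier results of these data known. The text names all 9 genes, listed genes called in a genotype comparison or the interaction, and the 5 genes most like the mean profile, and a few marker genes and decay-sensitive transcripts were added after their values were seen. Promoter and annotation data came from RefSeq GRCm38.p6 and GENCODE M21. A further gene, not among the 9, was left out of the lists and is not reported here.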

Additional observations from a re-analysis of the deposited data

Results flagged for a closer look

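Coq8a was flagged because its change with genotype differed between the chambers by a test of the difference itself. It measured 294, 258 and 269 CPM in control atria and 79.1, 68.7 and 66.8 CPM in CUG960 atria, and 561, 606 and 534 CPM in control ventricles and 88.4, 107 and 85.6 CPM in CUG960 ventricles. The interaction of chamber and genotype was -0.66 ± 0.14 on the log2 scale (SE; edgeR adjusted P value 0.033), that is a larger fall in ventricles. The call was lost without V119, V123, V327, V333 or V334 (adjusted P values 0.17, 0.088, 0.091, 0.22 and 0.094) and with library totals in place of TMM (0.052). None of the 9 genes of the machinery met this rule, and groups of 3 mice were too small for a test of outlying samples.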

How the results depend on the processing

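Of 684 estimates for the 9 genes under the alternatives, the sign differed from the reported one in 48, and 5 of these were called in either fit. The 684 include those under the threshold of 1.5-fold, which are the reported estimates themselves and cannot differ in sign. The atrial Upf3b call held under every alternative scaling, filter, DESeq2 and the single fit, but the count of genes called higher in atria ranged from 0 to 1 when a mouse was left out, was 0 with a fold change of at least 1.5 and was 3 with the length trend removed. Library totals without TMM called 1 gene in ventricles (Upf3b, 0.36), where the median of all genes moved from -0.01 to 0.10 and 81.6% of calls were higher (57.7% with TMM), and all 9 lower between chambers in both genotypes. On that scaling the sign turned for Upf3a, Smg8 and Smg9 in atria (0.02, 0.03 and 0.02), where the median moved from -0.01 to 0.03 and 66% of calls were higher (54.6% with TMM), for Upf1 and Smg5 in ventricles (0.08 and 0.06), for Upf3a and Upf3b between the chambers of controls (-0.43 and -0.39), and for Upf3a, Smg1 and Smg9 between those of CUG960 +dox mice (-0.30, -0.32 and -0.35), where the median of all genes moved as given above. Calls lower in ventricles ranged from 0 to 2 in controls and from 0 to 1 in CUG960 +dox mice with a mouse left out, and were 0 in both with the fold threshold. In CUG960 +dox mice they were 3 with upper quartile scaling, 3 when each library needed 10 counts of a gene and 3 with all 12 libraries in a single fit, each time by adding Upf1 and Smg5, and in controls 3 with upper quartile scaling, 3 in the single fit, both by adding Smg8, and 1 with the length trend removed, which lost Upf1. The mouse as a replicate block, paired by animal, gave 2 and 1 calls and 0 for the interaction, as without it. Genotype comparisons could not be paired because each mouse has 1 genotype.

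Uncalled estimates, not all of them near 0, changed sign as follows, and the causes were not tested. With upper quartile scaling Upf3a was -0.003 between control chambers. With the length trend removed Smg8 was 0.0005 in atria, Upf2 and Smg6 were -0.01 and -0.03 for the interaction, Upf2, Upf3a, Smg1 and Smg5 were 0.03, -0.06, 0.11 and 0.04 between control chambers, and Upf2 and Smg9 were 0.01 and -0.02 between CUG960 chambers. With each mouse left out in turn, atrial values ran from -0.05 to 0.04 for Upf3a, -0.02 to 0.02 for Smg8 and -0.06 to 0.05 for Smg9. Ventricular values ran from -0.08 to 0.01 for Upf1, -0.003 to 0.10 for Upf3a, -0.13 to 0.23 for Smg1 and -0.03 to 0.12 for Smg9. For the interaction they ran from -0.01 to 0.13 for Upf1, -0.05 to 0.15 for Upf2, -0.03 to 0.13 for Upf3a, -0.04 to 0.37 for Smg1, -0.05 to 0.14 for Smg6 and -0.03 to 0.17 for Smg9. Between control chambers they ran from -0.18 to 0.02 for Upf2, -0.0001 to 0.07 for Upf3a, -0.30 to 0.11 for Smg1 and -0.05 to 0.01 for Smg9, and between CUG960 chambers from -0.10 to 0.03 for Upf2, -0.01 to 0.17 for Upf3a, -0.08 to 0.002 for Upf3b, -0.05 to 0.13 for Smg1 and -0.05 to 0.16 for Smg9. Of 36 group levels, 1 moved by more than its SD with RLE scaling, 4 with upper quartile, 31 without TMM and 35 when mitochondrially encoded transcripts were left out. Leaving these transcripts out makes every library size smaller, so levels in CPM shift on that account alone. Leaving out mitochondrially encoded transcripts, as an alternative to the fits, and the length trend were chosen after seeing the data.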
